A study of Mus musculus with 13 samples.

Results

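The transcripts of 7 mouse genes linked to lymphocyte quiescence were followed over thymocyte stages and over peripheral lymphocyte classes: the transcription repressor gene Bach2, the forkhead factor genes Foxo1, Foxo3 and Foxp1, and the antiproliferative genes Tob1, Btg1 and Btg2. They were selected by symbol, and each was found once among the 57010 genes of both deposited gene lists. The data came from the Parse split-pool assay, in which fixed cells are barcoded in rounds of wells and transcripts are counted as unique molecular identifiers (UMIs). The whole-transcriptome (WT) kit held 20 tissue samples sequenced as 9 sublibraries, and the Mini kit held 4 as 2 sublibraries. The 4 WT samples numbered 1 to 4 and the 4 Mini samples (1-A, 1-B, 2-A and 2-B) were single thymic lobes of young female C57BL/6N mice with no treatment named. The mice were 2 months old by the methods of the study, with a pair of mice behind each kit. The lobes were mechanically and enzymatically dissociated, and the cells were fixed and frozen. WT samples 1 to 4 were taken as the lobes because their mean cell number is that of the thymic samples of the study, since the labels give no tissue per sample. The study calls the other 16 WT samples non-thymic. The labels name thymus and spleen, young and adult mice, and control and chronic stress only for the kit as a whole, and the tissue, age and treatment of each of the 16 were not assigned here. The names of the 16 begin with CVS_C, CVS_S or YD_C, and the samples were described as a single set without regard to these names. The p-values below measure how differences between classes varied from lobe to lobe. They treat the lobes as independent, although lobes of 1 mouse are not independent animals, and spread between mice was not estimated.

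BACH2 is a bZIP repressor that competes with AP-1 factors and is known for restraining effector and plasma cell programmes in naive T and B cells. FOXO1 and FOXO3 are forkhead factors that PI3K and Akt signalling drives out of the nucleus, and FOXO1 is known for sustaining Il7r, Klf2 and S1pr1 in naive T cells. FOXP1 is a forkhead repressor required for naive T cell quiescence and for B cell development. BTG1, BTG2 and TOB1 are small adaptors that bring the CCR4-NOT deadenylase to mRNAs, and BTG1 and BTG2 are known for keeping naive T cells quiescent. In the thymus, double-negative (DN) cells proliferate and become double-positive (DP) cells, which leave the cycle, recombine their T cell receptor genes, undergo selection and mature into single-positive (SP) cells.

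The genes differ in size and setting on the mouse genome (GRCm38, the mm10 build of the files). Bach2 spans chr4:32238804-32586108 on the plus strand, 347305 bp for 9940 bases of exon, with the intronic transcript Bach2it1 on its own strand and the antisense gene Bach2os on the other. Foxp1 spans chr6:98925338-99522721 on the minus strand (597384 bp). Foxo1 lies at chr3:52268336-52353221 (plus), with an antisense gene (Gm20402), and Foxo3 at chr10:42181841-42276755 (minus). The adaptor genes are short: Tob1 at chr11:94211454-94215495 (plus), Btg1 at chr10:96617006-96622809 (plus) and Btg2 at chr1:134075170-134079120 (minus). No source used here says whether reads were counted by strand, so Bach2 and Foxo1 UMIs could hold reads of their antisense partners.

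RefSeq promoter windows were available for all 7 genes (9 windows, 3 of them for Foxp1, on GRCm38.p6). The forkhead motif GTAAACA, searched on both strands, was found in 3.65% of 32851 promoter windows of the same length and, among the 7 genes, in that of Btg1 alone, 204 bases before the start. The BACH and AP-1 motif TGANTCA, present in 7.81% of windows, was in none of the 9, and the box CCAAT, present in 37.4%, was in those of Bach2, Foxo1, Tob1, Btg1, Btg2 and 1 Foxp1 window. The 250 bases upstream of Btg1 are shown for the forkhead motif, in capitals as read on the other strand, and those of Bach2, the gene that changed most, for the CCAAT box, in capitals as its reverse complement. The RefSeq start of Bach2 lies within the gene as GENCODE draws it.
Btg1, chr10:96616751-96617000, plus strand: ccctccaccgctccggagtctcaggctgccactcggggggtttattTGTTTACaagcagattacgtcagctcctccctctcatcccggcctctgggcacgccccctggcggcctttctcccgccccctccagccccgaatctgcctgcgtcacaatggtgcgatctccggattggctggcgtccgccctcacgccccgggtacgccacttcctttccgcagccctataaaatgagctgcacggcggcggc
Bach2, chr4:32417185-32417434, plus strand: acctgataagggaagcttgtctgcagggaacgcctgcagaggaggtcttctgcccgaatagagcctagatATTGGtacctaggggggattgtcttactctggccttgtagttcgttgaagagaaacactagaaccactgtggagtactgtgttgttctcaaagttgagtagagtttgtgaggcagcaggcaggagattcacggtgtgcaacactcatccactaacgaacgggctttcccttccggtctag

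After quality control 58642 of 61923 thymic cells remained, 3964 to 14186 per lobe, with 20110468 to 84292900 UMIs per lobe in the cells kept and sample medians of 2306 to 3900 UMIs per cell. The 16 other samples gave 81396 of 86786 cells. All 128624 WT and 20085 Mini barcodes were distinct once the sublibrary was part of the name, and 19867 and 1360 well combinations recurred in more than 1 sublibrary. Cells were clustered on 213 marker genes that do not include the 7 genes, and clusters were named from marker lists. This gave 1661 DN-like, 14033 cycling (5451 S phase and 8582 G2 and mitosis), 18358 resting DP-like, 7416 selected-like and 5985 mature SP-like cells, while 7413 cells stayed unnamed. Among the unnamed were clusters of 1785, 3529 and 896 cells that scored best for resting DP markers but had leading genes of another list. The remaining cells were named B cell-like (2873), dendritic-like (504) and innate-like T (399). Of the B cell-like cells, 2177 formed a cluster with scores of 0.925 for B cell and 0.447 for resting DP markers. It held 15714 CPM of resting DP markers and 927 CPM of B cell markers, and was also left out of the resting DP-like class. In both mature SP-like clusters the marker list next in score was that of regulatory T cells, and in both selected-like clusters that of immature CD4 lineage cells. Of the DN-like cells, 603 formed a cluster that scored 1.306 for DN and 1.277 for G2 and mitosis markers. The selected-like class was named from its list of selection markers and not from the coreceptors that define DP cells. Against the mean of the other clusters, Cd4 stood at 0.599 and Cd8b1 at 0.253 times in its cluster of 3660 cells, which goes against a DP state, and at 1.19 and 1.10 times in its cluster of 3756 cells. Both were at 1.40 to 2.05 times in the resting DP-like clusters, at 1.09 and 1.03 in one mature SP-like cluster and at 0.457 and 0.376 in the other. The coreceptors thus did not show the first of these, of 2975 cells, to be single-positive. In the DN-like clusters Cd4 stood at 0.566 and 0.534 and Cd8b1 at 0.54 and 0.642 times. Rag1, a marker of recombining DP cells that was among the 213, averaged 1842 ± 312 CPM (UMI counts per 1e6 UMIs outside ribosomal RNA; SD, n = 8 lobes) in resting DP-like cells and 677 ± 142 CPM in mature SP-like cells, whereas the egress receptor gene S1pr1 averaged 2.4 ± 1.3 and 101 ± 17.4 CPM. No caller removed doublets here, whereas the study called doublets by computation and removed them from its Parse data. An alternative that dropped the 5% most doublet-like cells took 10.7% of cycling, 8.25% of DN-like and 6.73% of mature SP-like cells. It took 4.67% of selected-like and 1.65% of resting DP-like cells. That 5% was a smaller share than the study called in either Parse kit, so doublets at the study's rate were not tested. Cycling and DN-like cells were the deepest, with lobe medians of 6211 to 9783 and 6751 to 9705.5 UMIs per cell against 1431 to 2940 in resting DP-like, 2178.5 to 4242 in selected-like and 2879 to 5038 in mature SP-like cells. Summed B cell markers lay between 53.4 and 224.5 CPM and macrophage, neutrophil and erythroid markers at 59.2 CPM or less in every thymocyte class compared below, with ranges that overlapped between classes.

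Bach2 was the gene of the 7 with the widest range over thymocyte stages. In resting DP-like cells it stood at 84.6 CPM in the lowest lobe, 134 in the median and 186 in the highest, a mean of 133 ± 35.9 CPM (SD, n = 8). Selected-like cells held 1169, 1256 and 1677 CPM and mature SP-like cells 1476, 1613 and 2320 CPM. DN-like cells were intermediate at 395, 463 and 599 CPM. The resting DP-like lobes overlapped with those of none of these classes. Of all genes tested, 6.76% were likewise higher without overlap in selected-like, 11% in mature SP-like and 15.5% in DN-like than in resting DP-like cells, and 5.08% were lower without overlap in DN-like cells. Within lobes Bach2 was 6.32 to 16.9 times as high in selected-like and 8.54 to 23.3 times as high in mature SP-like cells. The unnamed cluster of 3529 cells, which had leading genes of the selected list and was left out of these classes, held Bach2 at 208, 307 and 378 CPM.

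**Figure D1:**
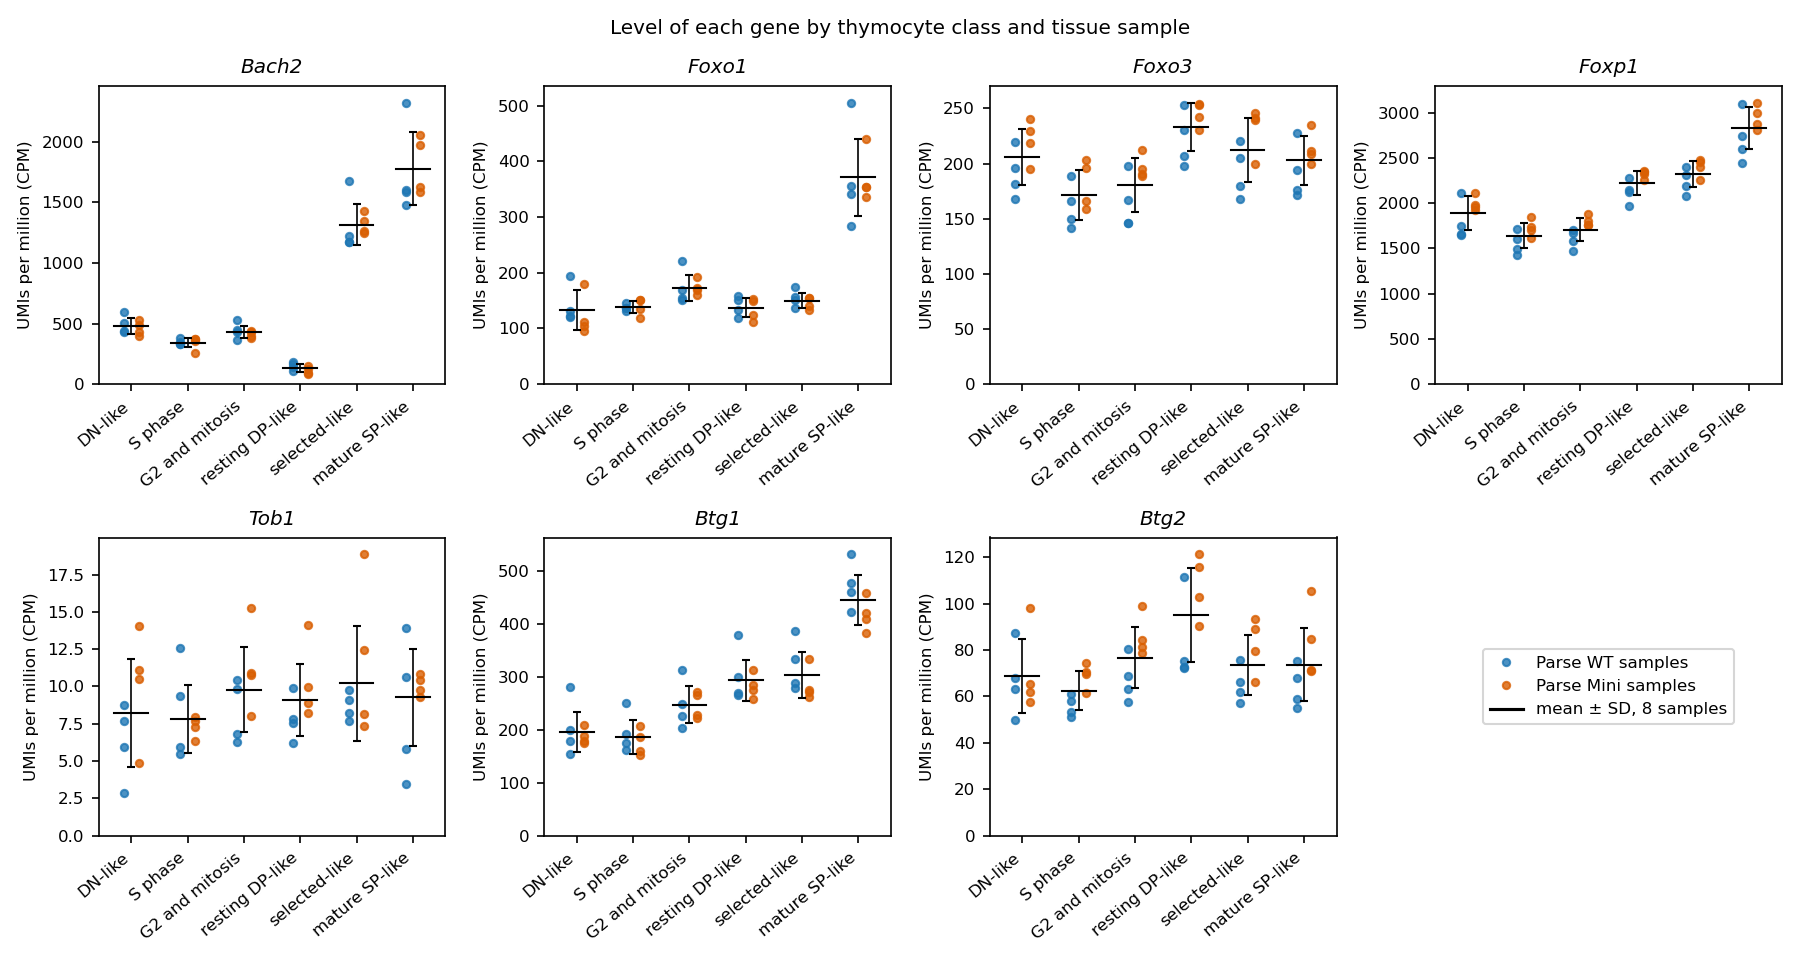
CPM of each gene (y axis, each panel with its own scale from 0) by thymocyte class (x axis), with 1 point per lobe (blue WT, orange Mini) and the mean ± SD of 8 lobes. Bach2 falls to 133 CPM in resting DP-like cells and reaches 1778 in mature SP-like cells. Among the classes shown, Foxo1 and Btg1 are highest in mature SP-like cells, and the Tob1 points of all classes overlap. Innate-like T cells, not shown, held Btg1 at a median of 487 CPM.

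Counts summed per lobe and class were compared with edgeR's quasi-likelihood test, the lobe as a block and p-values adjusted by Benjamini-Hochberg over 11912 genes, all 7 genes among them. The first 3 comparisons share the resting DP-like sums. Selection was asked about first: in selected-like against resting DP-like cells 3 of the 7 genes passed an adjusted p of 0.05, where 43.8% of all genes tested did. They were 1 higher and 2 lower, against 23.2% and 20.7% of all genes. Bach2 rose by 3.25 ± 0.12 on the log2 scale (SE; adjusted p = 5.55e-20, higher in 8 of 8 lobes) and was the only one of the 7 also past 2-fold, as were 5.75% of all genes, 4.58% higher and 1.17% lower. Foxo3 fell by 0.17 ± 0.03 (adjusted p = 5.88e-06, lower in 7 of 8 lobes) and Btg2 fell by 0.39 ± 0.06 (adjusted p = 6.24e-07, lower in 8 of 8), with lobes that overlapped between the classes, where 3.41% of all genes were lower without overlap. Foxo1 (0.10 ± 0.07), Foxp1 (0.03 ± 0.03), Tob1 (0.14 ± 0.14) and Btg1 (0.02 ± 0.05) did not pass (edgeR adjusted p of 0.242, 0.290, 0.472 and 0.726). Without the cluster low in both coreceptors, an alternative chosen after seeing the data, Bach2 rose by 2.64 (edgeR adjusted p = 1.15e-17), Foxo3 fell by 0.13 and Btg2 fell by 0.24. The finer clustering set immature CD4 lineage cells apart. Its selected-like class also took in a cluster of 1985 cells that scored -0.029 for selected and -0.039 for resting DP markers. At this clustering Bach2 rose by 2.52 and Foxp1 fell by 0.09 (edgeR adjusted p = 0.0066). With no upper limit on UMIs per cell Foxp1 fell by 0.19 (edgeR adjusted p = 7.24e-08).

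In mature SP-like cells Foxo1, Btg1 and Foxp1 were higher besides Bach2. In mature SP-like against resting DP-like cells 6 of 7 genes passed, 4 higher and 2 lower, where 54.2% of all genes passed, 28.2% higher and 26.1% lower. Bach2 rose by 3.67 ± 0.12 (edgeR adjusted p = 1.11e-21) and Foxo1 by 1.38 ± 0.06 (adjusted p = 1.4e-18), both past 2-fold as were 11.1% of all genes, 8.4% higher and 2.72% lower. Btg1 rose by 0.58 ± 0.05 and Foxp1 by 0.31 ± 0.03, and all 4 were higher in 8 of 8 lobes with no overlap between the classes, as were 11% of all genes, while 5.07% were lower without overlap. Foxo3 fell by 0.24 ± 0.03, lower in 8 of 8 lobes, and Btg2 fell by 0.40 ± 0.06, lower in 7 of 8, both with overlapping ranges. Tob1 differed by -0.06 ± 0.15 (adjusted p = 0.750).

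Between selected-like and mature SP-like cells 4 of the 7 genes passed, all of them higher in mature cells, where 30.1% of all genes passed and 15.8% were higher. Foxo1, the factor behind the naive T cell egress and survival genes, went from 134, 152 and 175 CPM (lowest, median and highest lobe) to 285, 354 and 505 CPM. These ranges do not overlap, as in 4.29% of all genes that were higher and 0.982% that were lower. The rise of 1.28 ± 0.07 (edgeR adjusted p = 2.15e-16) was the only one of the 7 past 2-fold, as were 4.06% of all genes, 3.58% higher and 0.479% lower. Btg1 rose from 262, 284 and 387 to 383, 441 and 532 CPM, by 0.55 ± 0.05 (adjusted p = 1.99e-12), higher in 8 of 8 lobes although the ranges touch. Bach2 rose by 0.42 ± 0.10 (adjusted p = 0.00196) and Foxp1 by 0.28 ± 0.03 (adjusted p = 3.12e-14), each in 8 of 8 lobes. The Bach2 call was lost with the WT lobes alone (0.42 ± 0.14, adjusted p = 0.0598), while the finer clustering gave 1.13, the selected-like class without its coreceptor-low cluster 1.01 and the top-scoring cluster of each class 0.21 (adjusted p = 0.0302). At the finer clustering the selected-like class held the weakly named cluster described above. Foxo3, Tob1 and Btg2 differed by -0.07 ± 0.03, -0.20 ± 0.16 and -0.01 ± 0.07 and did not pass (adjusted p of 0.148, 0.381 and 0.972). Without the coreceptor-low cluster Foxo3 (-0.15, edgeR adjusted p = 0.00114) and Btg2 (-0.20, adjusted p = 0.0302) passed.

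**Figure D2:**
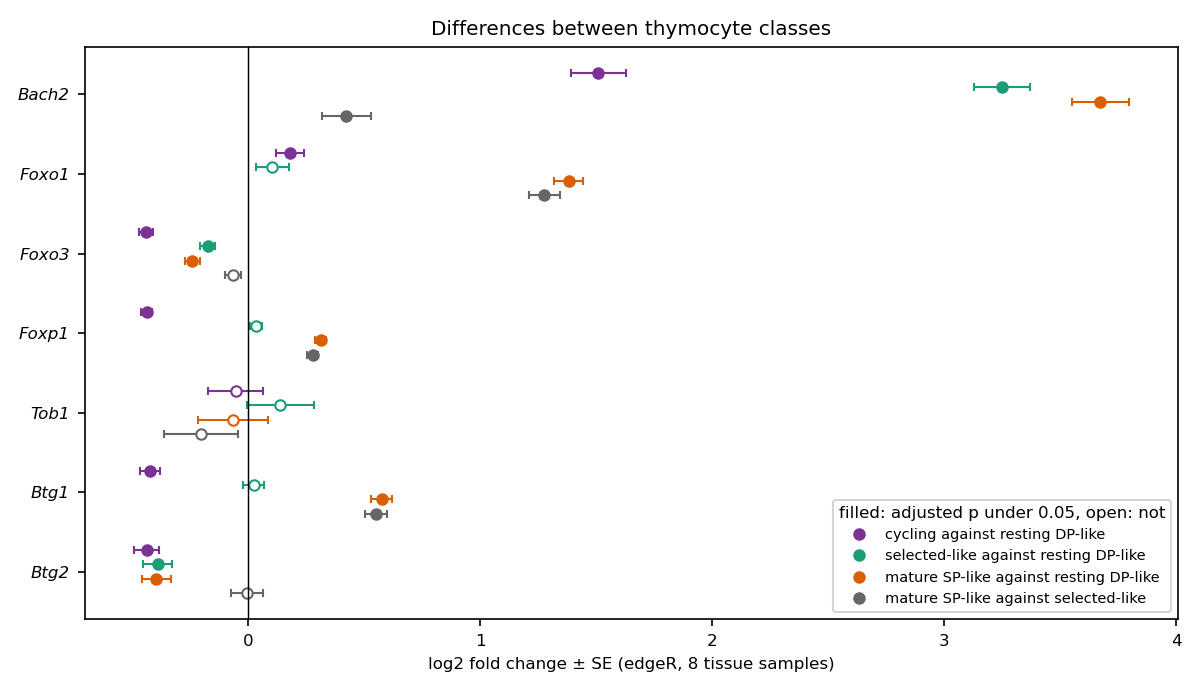
Log2 fold change ± SE (x axis, edgeR, 8 lobes) of each gene (y axis) in the 4 comparisons of thymocyte classes, filled where the adjusted p was under 0.05. Bach2 lies at 1.51, 3.25 and 3.67 against resting DP-like cells, Foxo1 reaches 1.38 and 1.28 in mature SP-like cells, and Foxo3 and Btg2 lie below 0 in the 3 comparisons with resting DP-like cells.

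Within these classes Bach2 differed between clusters. The selected-like cluster low in both coreceptors, with the lower depth (1886 UMIs per cell), held 2038, 2386 and 2966 CPM of Bach2 in the lowest, median and highest lobe, and the deeper one (4877 UMIs) 759, 865 and 994 CPM, above the 186 CPM of the highest resting DP-like lobe. The first also held fewer UMIs of resting DP markers (4049 against 12229 CPM, summed over lobes). Of the mature SP-like clusters, that of 2330 UMIs per cell held 2300, 2700 and 3248 CPM and that of 6352 UMIs 1187, 1291 and 1778 CPM. Resting DP markers summed to 2934 and 10569 CPM in them. Depth, coreceptors and resting DP markers were thus lower where Bach2 was higher inside both classes, and their part in the result was not tested. With each class restricted to its top-scoring cluster, Bach2 rose by 4.81 from resting to selected-like and by 5.02 from resting DP-like to mature SP-like cells.

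The comparison of cycling with resting DP-like cells asked whether genes named for quiescence are lower in dividing thymocytes. Foxp1, Foxo3, Btg1 and Btg2 were lower, Bach2 was higher and Tob1 did not pass. Of the 7 genes 6 passed, 2 higher and 4 lower, where 70.7% of all genes tested passed, 37.7% higher and 33% lower. Foxp1 fell from 1969, 2263 and 2358 CPM in resting DP-like cells to 1457, 1700 and 1865 CPM in cycling cells, by 0.44 ± 0.03 on the log2 scale (edgeR adjusted p = 3.86e-24), with no overlap, as for 6.66% of all genes (16.1% were higher without overlap). Foxo3 fell by 0.44 ± 0.03 (adjusted p = 2.79e-21), Btg2 by 0.44 ± 0.05 (adjusted p = 2.63e-10) and Btg1 by 0.42 ± 0.04 (adjusted p = 4.48e-11). Each of the 3 was lower in 8 of 8 lobes, and in each the ranges overlapped. Btg1 stood at 194, 213 and 292 CPM in cycling and at 259, 280.5 and 379 CPM in resting DP-like cells. Tob1 was at 6.2 to 11.8 CPM in cycling and 6.2 to 14.1 CPM in resting DP-like cells and did not pass (-0.05 ± 0.12, adjusted p = 0.701).

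Bach2 was higher in cycling cells than in resting DP-like cells, at 332, 406 and 444 CPM against 84.6, 134 and 186 CPM. The rise was 1.51 ± 0.12 (edgeR adjusted p = 1.56e-12) in 8 of 8 lobes, past 2-fold as were 12.9% of all genes, 11.1% higher and 1.8% lower. When cycling cells were instead taken as the 10% of cycling and resting DP-like cells with the highest share of cycle markers, and resting cells as the 50% with the lowest, Bach2 differed by -0.04 ± 0.19 (adjusted p = 0.882). Limiting cells to 8000 UMIs gave 1.15 and the top-scoring clusters 0.86. Foxo1 rose by 0.18 ± 0.06 (adjusted p = 0.00965), higher in 7 of 8 lobes, and that call was lost in 10 of 24 alternative settings, among them without WT 1 (0.10, adjusted p = 0.131) and without Mini 2-B (0.11, adjusted p = 0.135).

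Ranking the cycling and resting DP-like cells of each lobe by their share of cycle markers gave a peak for Bach2 and lower levels of Foxp1, Btg1, Foxo3 and Btg2 in the last 3 deciles. Bach2 had a lobe median of 122 CPM in the lowest decile, rose to 488 CPM in the 7th decile and returned to 165 CPM in the 10th. Foxp1 had a median of 2282 CPM in the lowest decile, 2053 in the 7th and 1365 in the 10th, and Btg1 of 304, 283 and 146 CPM. Foxo3 went from 214 CPM in the lowest decile to 246 in the 5th, 214 in the 7th and 154 in the 10th. Btg2 stood at 89.8 CPM in the lowest decile, 99.9 in the 6th, 91.8 in the 7th and 60.7 in the 10th. Foxo1 had medians of 142 and 149 CPM at the ends. Median depth went from 1558 UMIs per cell in the lowest decile to 7699 in the 7th and 5646 in the 10th, and selection markers from 1735 to 2312 and 1397 CPM. Depth and selection markers were therefore high where Bach2 was high, and their part was not tested.

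**Figure D3:**
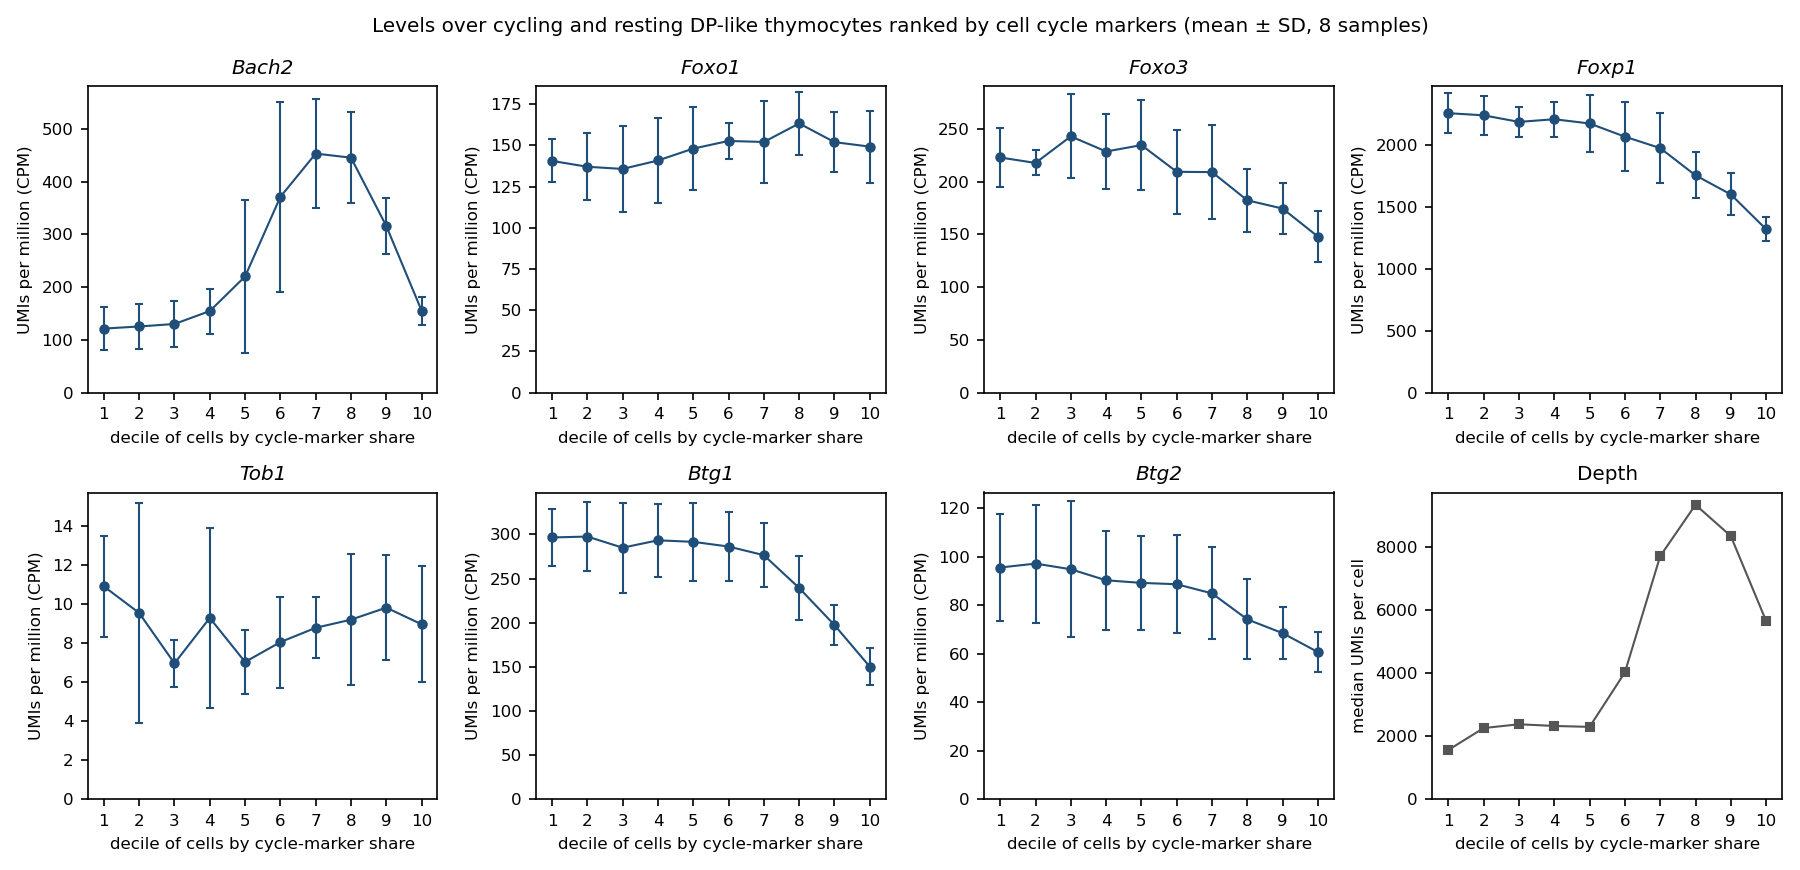
Mean ± SD over 8 lobes of the CPM of each gene (y axis) in deciles of the cycling and resting DP-like cells of a lobe ranked by the share of their UMIs in S phase, G2 and mitosis markers (x axis, 1 lowest, 10 highest), with the median UMIs per cell in the last panel. Bach2 peaks in the 7th and 8th deciles, and Foxp1, Btg1, Foxo3 and Btg2 are lower from the 8th to the 10th than in the deciles before.

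The cycling clusters showed the same split. In the G2 and mitosis cluster with the higher marker score Bach2 stood at 132, 165 and 209 CPM, and in the other, of 10494.5 UMIs per cell, at 430, 550 and 1002 CPM. In S phase the corresponding clusters held 104, 126 and 193 CPM and 453, 580 and 821 CPM. Foxp1 was at medians of 1568 and 1879 CPM in the G2 and mitosis clusters and 1478 and 1973 CPM in the S phase clusters, and Btg1 at 195 and 270 and at 125 and 252 CPM. Between phases as a whole, Btg1 was 1.17 to 1.49 times as high in G2 and mitosis as in S phase and Foxo1 1.09 to 1.52 times, each in 8 of 8 lobes, with no test. DN-like cells held Bach2 at 2.56 to 6.26 times and Btg1 at 0.58 to 0.74 times the resting DP-like level. In the DN-like cluster that scored nearly as high for G2 and mitosis (13110 UMIs per cell) Bach2 had a lobe median of 361 CPM, and in the other (6135 UMIs) of 573 CPM.

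Shares of cells with a UMI, after thinning to 1000 UMIs per cell, followed the levels. Bach2 was seen in 9.11% ± 2.04 (SD, n = 8) of resting DP-like, 21.1% ± 2.88 of cycling, 54.2% ± 2.69 of selected-like and 75.2% ± 4.20 of mature SP-like cells. Without thinning the shares were 15.8%, 50.1%, 71.9% and 93.0%. Foxo1 went from 11.5% ± 1.01 in resting DP-like to 30.9% ± 3.89 in mature SP-like cells, Btg1 from 24.2% to 38.5% and Foxp1 from 85.3% to 91.5%. Thymic dendritic-like cells, of another lineage, showed a UMI of Bach2 in 22.0% ± 6.64, of Foxo1 in 10.9% ± 5.72, of Foxo3 in 15.96% ± 7.17, of Foxp1 in 57.5% ± 6.84, of Btg1 in 27.7% ± 7.93 and of Btg2 in 11.1% ± 5.36 of cells (n = 7 lobes with at least 30 such cells, median depth 6656 UMIs). Over that level by more than its SD were Foxp1 in the 4 classes, Bach2 in selected-like and mature SP-like cells, and Foxo1 and Btg1 in mature SP-like cells. The other shares of these 6 genes, among them Btg1 at 24.2% in resting DP-like and 18.1% in cycling cells and Btg2 at 8.84% in resting DP-like cells, were at, below or within that spread. The dendritic-like cells themselves held Btg1 at a lobe median of 349 CPM and Btg2 at 133.5 CPM. Their shares are thus a level of another lineage and not a floor. Whether the other shares exceeded background was not tested. Thinning left out 4669 resting DP-like, 154 cycling, 910 selected-like and 522 mature SP-like cells. Tob1 was seen in 0.81% of resting DP-like and 0.75% of mature SP-like cells and passed in none of the edgeR comparisons of thymocyte classes. Small differences in it could have been missed.

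The rise of Bach2 was measured in both kits. In a fit with a kit by class term it was, from resting to selected-like cells, 3.02 with the WT lobes and 3.55 with the Mini lobes, and to mature SP-like cells 3.43 and 3.99. A test of the kit by class interaction called 10, 4 and 20 of 11912 genes (0.0839%, 0.0336% and 0.168%) in the cycling, selected and mature comparisons with resting DP-like cells, and none of the 7 (Bach2 edgeR adjusted p of 0.992, 0.882 and 0.704). Resting DP-like cells of 1 lobe were also spread over several first-round wells, 20 in all. Between wells of a lobe the median fold was 1.09 for Bach2, 1.08 for Foxp1 and 1.57 for Tob1, and the highest was 1.47 for Bach2.

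The closest patterns to Bach2 over the 40 sums of 5 thymocyte classes and 8 lobes, centred within lobe, were those of Retreg1 (Pearson r = 0.99), Gpr146 (0.99) and Btla (0.99), among 6482 genes of at least 20 CPM. Those closest to Foxo1 were Stk10 (0.97), Smurf2 (0.97) and Rab3ip (0.96), to Foxp1 Ablim1 (0.96), Cyria (0.96) and Tecpr1 (0.96), and to Btg1 Arhgef1 (0.98), Map4k2 (0.98) and Sp100 (0.97). Foxo3 was nearest to Ogt (0.88), Klhl24 (0.87) and Eya2 (0.87), and Btg2 to Zbed6 (0.83), A430035B10Rik (0.83) and Myo10 (0.81). Among the genes themselves, Foxp1 and Btg1 had r = 0.91, Foxo1 and Btg1 0.80 and Bach2 and Btg2 -0.52. These points share lobes, depth by class and clustering, and the values are descriptive.

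Of 20 known forkhead targets, 7 passed as higher and 11 as lower in mature SP-like against resting DP-like cells, where 28.2% and 26.1% of all genes did. The highest were the FOXO1 targets S1pr1 (5.22 ± 0.21 on the log2 scale), Il7r (4.50 ± 0.14), the interleukin-7 receptor, and Klf2 (4.08 ± 0.14), the regulator of egress. The list median was -0.17 against 0.00 over all genes. In selected-like cells 6 of the 20 were higher and 7 lower (23.2% and 20.7% of all genes), led by the inhibitory receptor gene Btla (3.80 ± 0.18) and Il7r (3.09 ± 0.16). In cycling cells 6 were higher and 12 lower (37.7% and 33%), led by Il7r (2.38 ± 0.16), S1pr1 (2.34 ± 0.26) and Btla (2.00 ± 0.19). These genes were thus higher along with Bach2 in cycling cells. Summed selection markers were higher there than in resting DP-like cells (lobe medians of 2211 and 1829 CPM) and summed mature SP markers lower (1277 and 1728 CPM). Their part in the Bach2 rise was not tested. Of 18 PI3K, Akt and mTOR regulators, 4 were higher and 7 lower in mature SP-like cells, among them the kinase gene Pik3cd (2.76 ± 0.08). In cycling cells 7 were higher and 10 lower, and in selected-like cells 6 and 5.

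A list of 18 genes held the CCR4-NOT deadenylase, which the BTG and TOB adaptors bind, and further poly(A) factors such as Pan3. Of these genes 5 were higher and 8 lower in mature SP-like against resting DP-like cells, where 28.2% and 26.1% of all genes were. Tnks1bp1 stood at 0.95 ± 0.16, the poly(A) binding protein gene Pabpc1 at 0.73 ± 0.03 and the deadenylase subunit gene Pan3 at -0.67 ± 0.03. In cycling cells 7 were higher, led by Cnot9 (0.95 ± 0.06), and 8 lower, against 37.7% and 33% of all genes. Of 18 other quiescence genes 8 were higher and 9 lower in mature SP-like cells (28.2% and 26.1% of all genes), with the mRNA decay factor gene Zfp36l1 at 1.80 ± 0.05 and the ubiquitin ligase gene Peli1 at 0.62 ± 0.03. In cycling cells 11 were higher and 6 lower (37.7% and 33% of all genes), led by the Cdk inhibitor gene Cdkn2c (3.01 ± 0.10) and the pocket protein gene Rbl1 (2.02 ± 0.06). Of the 10 BACH2 partners and known repressed genes only 6 could be tested, with 2 higher and none lower in mature SP-like cells against the same 28.2% and 26.1% (Nfe2l2 0.67 ± 0.08 and Gclm 0.39 ± 0.12), and Hmox1, Klrg1, Ifng and Gzmb were too low for the test. All calls are edgeR's at an adjusted p of 0.05.

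Of the 14 paralogues of the 7 genes 11 could be tested. In mature SP-like cells 5 were higher and 2 lower, against 28.2% and 26.1% of all genes, with the forkhead genes Foxn3 (0.81 ± 0.03) and Foxk1 (0.77 ± 0.05) up and Bach1, the paralogue of Bach2, at -0.70 ± 0.04. In cycling cells 3 were higher and 4 lower, against 37.7% and 33% of all genes. Foxm1, a forkhead activator of mitotic genes, rose by 4.23 ± 0.12, and Foxj2 stood at -0.53 ± 0.08. Of 11 tested dissociation and immediate early genes 8 were higher and 1 lower in selected-like cells, where 23.2% and 20.7% of all genes were, with Egr1 at 2.67 ± 0.13 and Nr4a1, a T cell receptor response gene, at 1.76 ± 0.07. The summed level of that list was 289.5 to 519.8 CPM in resting DP-like, 624 to 988 in selected-like, 487 to 699 in mature SP-like and 521 to 843 CPM in cycling cells. It moved with Bach2 between resting DP-like cells and the other classes, and its part in the result was not tested. Of 8 tested p53 targets none was higher and 2 were lower in mature SP-like cells, where 28.2% and 26.1% of all genes were (Trp53inp1 -0.70 ± 0.04 and Mdm2 -0.21 ± 0.04).

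The 16 other samples held B and T lymphocytes, and their values are given as the lowest, median and highest sample with no test. Although the study calls them non-thymic, they also held a resting DP-like cluster of 2451 cells, led by Arpp21, Rag1 and Dntt, with Cd4 at 3.61 and Cd8b1 at 2.59 times the mean of the other clusters. Its Bach2 stood at 242, 580 and 1328 CPM (13 samples with at least 30 such cells, median depth 1077 UMIs per cell), above the 186 CPM of the highest lobe. In these samples the Bach2 median was lower in erythroid-like (226 CPM) and macrophage-like cells (371 CPM) and higher in neutrophil-like cells (1092 CPM). The resting DP-like median thus lay within the range of other lineages. Whether background RNA contributed to its difference from the lobes was not tested. Follicular B-like cells (18901 cells), mature naive cells that circulate through spleen follicles, held Bach2 at 1121, 2304 and 4558 CPM. Of these, 3357 formed a cluster whose score for follicular markers (0.568) was close to that for B cells (0.515), with a Bach2 median of 1819 CPM. Another 3193 formed a cluster with scores of 1.501 and 1.235 and a Bach2 median of 3282 CPM, and neither had a follicular marker among its 10 leading genes. The remaining follicular B-like clusters had medians of 2320 and 2899 CPM. Naive CD4 T-like cells (7320 cells) held it at 355, 1247 and 2315 CPM and naive CD8 T-like cells (3920 cells) at 491, 1252 and 2212 CPM. Both T classes overlapped with the B class across samples, but within samples Bach2 was lower in naive T-like than in follicular B-like cells in 15 of 16, by a median of -1.12 on the log2 scale, and without both weakly named clusters in 15 of 16, also by -1.12. The other B cell-like clusters (19358 cells) held Bach2 at 648, 1262 and 3797 CPM, with a median close to those of the naive T-like classes, and naive T-like cells were lower than these in 12 of 16 samples (median -0.49). Regulatory T-like cells held 253, 710 and 1571 CPM and were lower than naive CD4 T-like cells in 16 of 16 samples (median -0.86).

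Foxp1 was also lower in naive T-like than in follicular B-like cells in 16 of 16 samples (median -0.61) and than in the other B cell-like clusters in 12 of 16 (median -0.22), at 1033, 1982 and 3681 CPM in naive CD4 T-like and 2006, 3578 and 4715 CPM in follicular B-like cells. It was lower in regulatory T-like than in naive CD4 T-like cells in 16 of 16 samples (median -0.64). Foxo1 had no common direction across samples and was higher in naive T-like than in follicular B-like cells in 7 samples and lower in 9 (median -0.09), with 194, 492 and 642 CPM in naive CD4 T-like and 277, 434 and 804 CPM in follicular B-like cells. Against the other B cell-like clusters Foxo1 was higher in naive T-like cells in 13 of 16 samples (median 0.56) and Btg1 in 12 (median 0.19). Against follicular B-like cells, Btg1 was lower in naive T-like cells in 13 of 16 samples (median -0.16) and Foxo3 in 14 (median -0.19). Btg2 was higher in 10 (median 0.17), and Tob1 in 14 of the 15 samples where both classes had a UMI (median 1.10). Tob1 rested on few UMIs, 178 in naive CD4 T-like and 348 in follicular B-like cells over all samples.

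**Figure D4:**
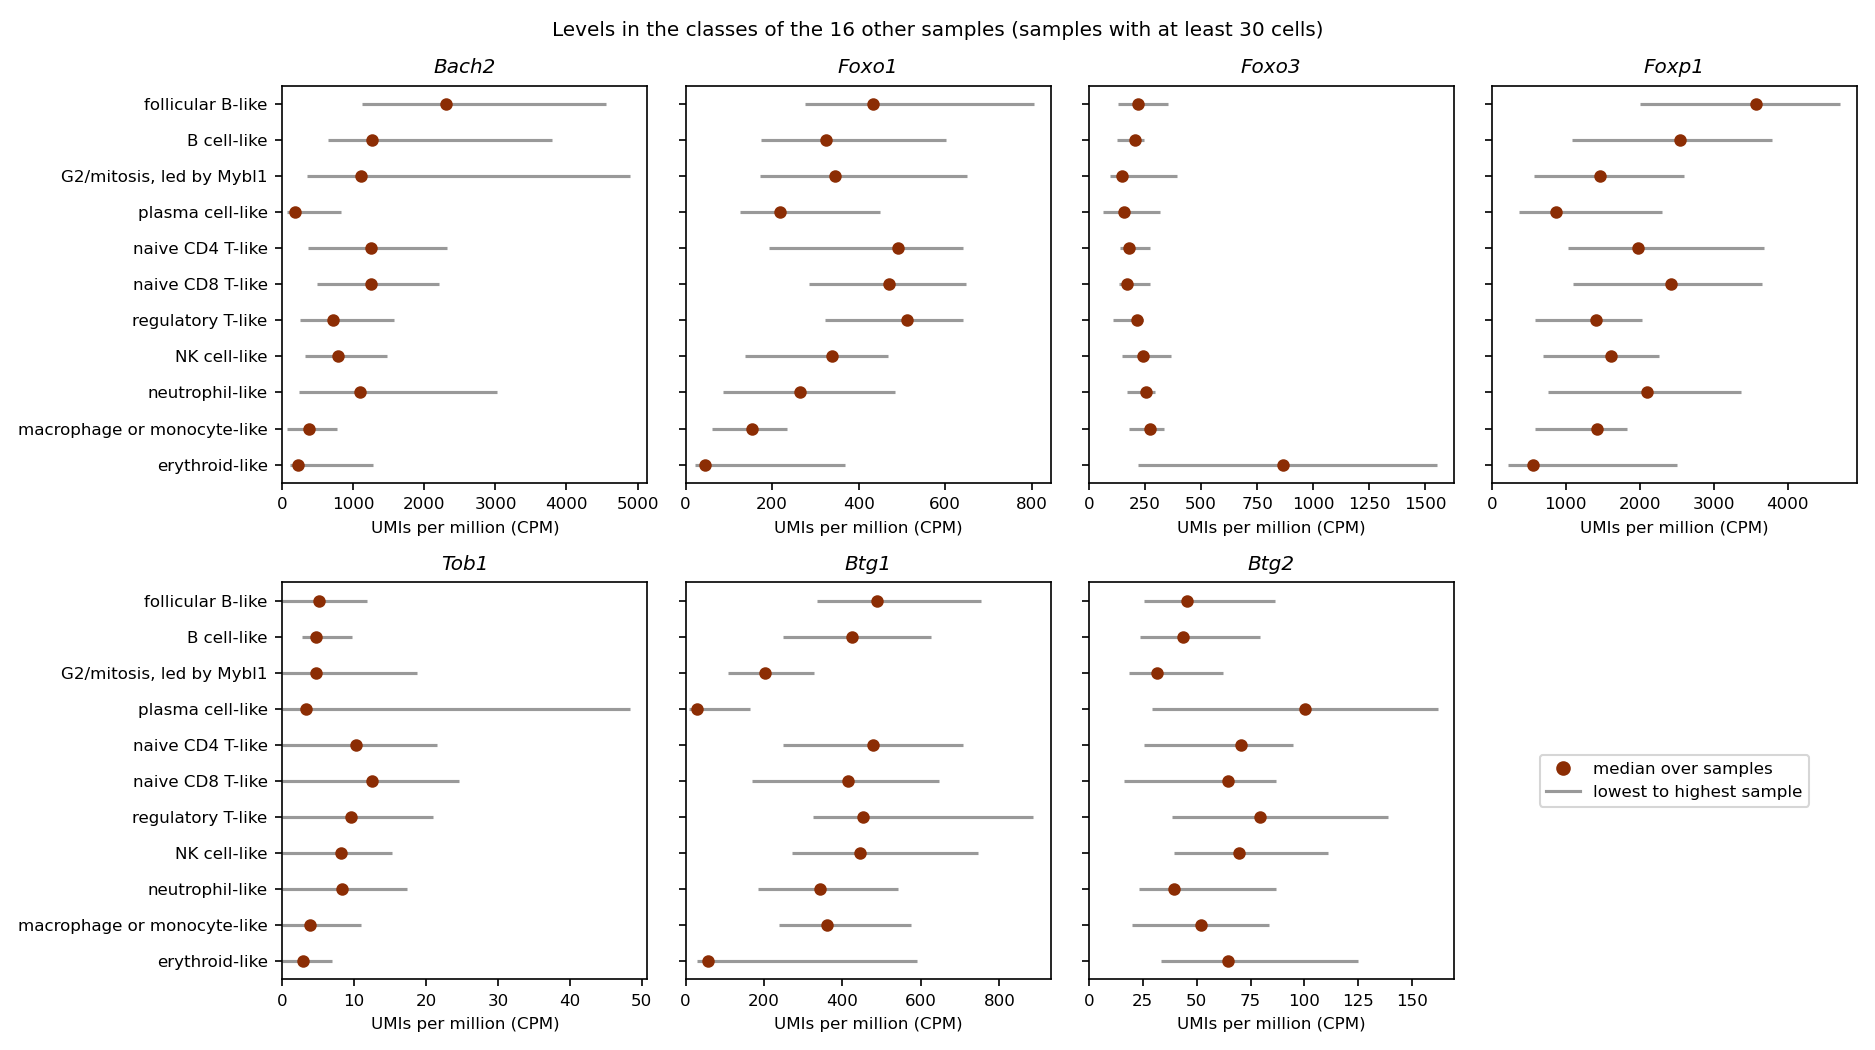
CPM of each gene (x axis, from 0, each panel with its own scale) in classes of the 16 other samples (y axis), as the median (point) and the range from the lowest to the highest sample (line). Bach2 and Foxp1 are highest in follicular B-like cells, Foxo3 in erythroid-like cells, and Btg1 is lowest in plasma-like cells.

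Neutrophil-like and macrophage-like cells, of the myeloid lineage, served as a check on background. Neutrophil-like cells held Bach2 at 239.5, 1092 and 3023 CPM, and their clusters differed. The cluster of 2187 cells, with a median of 1329 CPM, had follicular B markers as its next list (scores of 1.935 and 0.909), and the cluster of 1786 cells, with the higher neutrophil score (5.127), had 588 CPM. Whether RNA of B cells or doublets contributed to the first was not tested. Naive T-like cells exceeded them in 7 of 16 samples (median -0.11), but exceeded the cluster of higher neutrophil score alone, a comparison chosen after its values were seen, in 14 of 14 (median 0.97). The Bach2 level of naive T-like cells against this background thus depended on the neutrophil-like cluster used. Follicular B-like cells exceeded them in 16 of 16 samples (median 1.07). Against macrophage-like cells, at 68.5, 371 and 775 CPM, naive T-like cells were higher in 16 of 16 samples (median 1.82). After thinning, Bach2 was seen in a median of 53.1% of neutrophil-like, 20.4% of macrophage-like, 57.1% of naive CD4 T-like, 63.6% of naive CD8 T-like and 80.3% of follicular B-like cells (57.7%, 28.4%, 74.6%, 81.2% and 90.1% of cells without thinning; 15 or 16 samples), at median depths of 2413, 2608, 2107, 2857 and 2375 UMIs per cell. Foxo1 in naive T-like cells exceeded both neutrophil-like (median 0.83) and macrophage-like cells (median 1.70) in 16 of 16 samples. Foxp1 exceeded macrophage-like cells in 16 of 16 (median 0.75) and neutrophil-like cells in 10 of 16, and in 14 of 14 (median 0.93) those of the higher neutrophil score.

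Plasma-like cells and a dividing cluster with germinal centre B cell genes differed from follicular B-like cells in several of the genes. Plasma-like cells (744 cells, 13 samples with enough cells) held Bach2 at 64.9, 185 and 823 CPM and Btg1 at 9.67, 29.1 and 165 CPM, both lower than follicular B-like cells in 13 of 13 samples (medians of -3.90 and -4.23). Foxp1 was lower in 13 of 13 (median -2.15) and Btg2 higher in 11 of 13 (median 0.90). The 60 Btg1 UMIs of plasma-like cells limit the precision of that value. A G2 and mitosis cluster led by Mybl1, with the germinal centre B cell genes Rgs13 and S1pr2 among its leading genes, held Btg1 at 108, 201 and 327.5 CPM. In it Btg1 (median -1.42), Foxp1 (median -1.35) and Btg2 (median -0.61) were lower than in follicular B-like cells in 16 of 16 samples, while Bach2 was lower in 11 and higher in 5. Against the mean of the other clusters, this cluster held Cd4 at 0.631 and Cd8b1 at 0.477 times. The follicular B-like clusters held at most 0.196 and 0.202 times. The finer clustering also had a G2 and mitosis cluster of 494 cells with Cd4 at 2.087 and Cd8b1 at 1.669 times. Whether dividing T cells were part of the Mybl1-led cluster was not tested. Foxo3 was highest in erythroid-like cells, at 221.5, 863 and 1552 CPM, and in a G2 and mitosis cluster led by Car1, a carbonic anhydrase gene of erythroid cells, it was higher than in follicular B-like cells in 15 of 15 samples (median 0.86). Btg1 was lower in that cluster in 15 of 15 (median -2.11).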

How the data were processed

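The authors processed each Parse sublibrary with split-pipe on an mm10 index from Ensembl and deposited raw UMI counts per cell and gene, with each cell's tissue sample and well. No source used here gives versions. The 10x data were not analysed here. Quality limits followed the study (500 to 25000 UMIs, mitochondrial share up to 15%).

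Cells were clustered (Leiden, resolution 1, igraph 0.11.9, 30 neighbours, 10 components) on 213 genes in 27 marker lists, with settings tuned after clusters had been seen. The genes and lists were chosen with earlier results of these data known. A class needed 3 markers raised 1.25-fold.

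Deposited counts were summed per lobe and class (at least 30 cells) and tested in edgeR 4.0.16 (R 4.3.3) with TMM, filterByExpr and the lobe as a block, without the marker genes and 3 ribosomal RNA genes. Sums of 1 lobe deviated together (lowest r between 0.107 and 0.424 by lobe, mean r between lobes -0.0473). On simulated counts for cycling against resting DP-like cells (11558 genes), 100% of 100 genes changed 2-fold and of 100 changed 4-fold were recovered, with 7 false calls among 11358 unchanged genes. The simulation gave every gene the same spread, had no differences between lobes and changed few genes, all above a minimum level. Its rates therefore do not carry over to the calls in these data. Counts of resting DP-like cells differed beyond sampling noise in every pair of lobes within a kit, the only pairs compared (chi-square per gene of 3.50 to 49.4). Genes were named by rule: the 7, the 3 called genes of largest change in each list and comparison, any counted where 5 or fewer passed, and the 3 genes of most similar pattern. Cluster-leading genes and Rag1 were named besides. DESeq2 1.42.0 was among 20 planned and 5 added alternatives.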

Additional observations from a re-analysis of the deposited data

Results flagged for a closer look

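In groups of 4 lobes of 1 kit, 5 of 70 sets of values had a lobe far from the other 3 by Dixon's criterion, and chance alone flags about 5% of sets. In 4 of the 5 it was WT 1. Bach2 stood at 1677 CPM in the selected-like cells of WT 1, against 1169 to 1220.5 in the other WT lobes, and at 2320 CPM in its mature SP-like cells, against 1476 to 1601. Foxo1 stood at 193.7 CPM in the DN-like cells of WT 1, against 121 to 132, and Btg2 at 111.4 CPM in its resting DP-like cells, against 72.4 to 75.2. Foxo3 stood at 199.3 CPM in the selected-like cells of Mini 1-B, against 239 to 246 in the other Mini lobes. Without WT 1 Bach2 rose by 3.14 in selected-like and 3.54 in mature SP-like cells against resting DP-like cells.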

How the results depend on the processing

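Of the counts of genes called, 90 stayed within 1.5 times the main value and 5 did not. Cells thinned to 1000 UMIs gave 3449 calls for selected-like (5220 in the report's fit) and 4166 for mature SP-like (6460) against resting DP-like cells, where fewer genes were tested. For mature SP-like against selected-like cells (3585), thinning gave 2152, the Mini lobes alone 2110 with fewer samples, and a fit with no replicate block 2257. Without the block the Foxo1 rise in cycling cells was 0.18 (adjusted p = 0.120), and no other call of the 7 genes was lost. Leaving out each lobe gave 7887 to 8411 calls in cycling, 4771 to 5055 in selected, 5925 to 6402 in mature against resting DP-like cells and 3111 to 3514 in mature against selected cells.

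Of the alternative values of the 7 genes in the 4 comparisons, 438 of 450 for results that had passed and 173 of 211 for those that had not kept their direction and side of the threshold. A called value changed sign once, Bach2 in cells picked by cycle marker share (-0.0368). The other changes of sign were in values that had not passed, and their cause was not tested. In cycling cells Tob1 moved to 0.10 by marker share and ranged from -0.196 to 0.0198 without single lobes. Against resting DP-like cells, selected-like cells gave without an upper UMI limit -0.0346 for Foxo1, -0.19 for Foxp1, -0.0162 for Tob1 and -0.037 for Btg1, at resolution 2 -0.0112 for Foxo1, -0.0868 for Foxp1 and -0.0218 for Btg1, with the Mini lobes alone -0.0042 for Foxp1 and -0.045 for Btg1, without the most doublet-like 5% of cells -0.0045 for Btg1, in top-scoring clusters -0.19 for Tob1, and without the coreceptor-low cluster -0.0189 for Foxp1 and -0.0429 for Btg1. Without single lobes Btg1 ranged from -0.00476 (without WT 1) to 0.0394. In mature SP-like cells Tob1 was 0.0277 in top-scoring clusters and ranged from -0.239 to 0.0212 without single lobes. Against selected-like cells, top-scoring clusters gave 0.0204 for Foxo3, 0.21 for Tob1 and 0.19 for Btg2, no upper limit 0.0612 for Foxo3 and 0.11 for Btg2, and Btg2 was 0.0018 with WT alone, 0.00092 with Mini alone, 0.0165 under 8000 UMIs, 0.10 thinned, 0.0085 at resolution 0.6 and -0.0607 to 0.0332 without single lobes.

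Foxo1 (0.35), Foxp1 (0.12) and Btg1 (0.14) passed in selected-like cells of the top-scoring clusters, an alternative chosen after seeing the data. Besides those named, the call of Foxo1 in cycling cells was lost with WT (0.14) or Mini lobes alone (0.18), under 8000 UMIs (0.15), without doublet-like cells (0.08), at resolution 0.6 (0.10), by marker share (0.10) and in top-scoring clusters (0.07). No ratio between naive T-like and follicular B-like cells moved by more than the spread between samples. Against the neutrophil-like cluster of higher marker score alone, the naive T-like ratios moved to 0.968 for Bach2 (from -0.106), 1.57 for Foxo1, 0.934 for Foxp1 and 1.15 for Btg1. Few mice, depth that differs between classes, clusters in place of sorted cells and undetected doublets limit these values, and Tob1, under 20 CPM, was not tested after thinning.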
